A study of Mus musculus with 6 samples.

Results

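The levels of 10 antioxidant genes, several of them textbook targets of the transcription factor NRF2, were read in single immune cells of mouse liver. The genes are Hmox1, Gclm, Txnrd1, Srxn1, Prdx1, Gpx1, Gpx4, Sod1, Sod2 and Txnip, 10 of the 32286 genes in the matrices. They were chosen by name, and each symbol occurred once. The study compared liver immune cells of mice at day 30 after infection in 3 groups: mock infection, an adeno-associated virus (AAV) with a control guide RNA (AAV-sgSCR), and AAV with a guide against Baat (AAV-sgBaat). The Baat product conjugates bile acids with taurine or glycine in hepatocytes, and by the series title the question is how bile acid synthesis bears on T cells that recognise a liver tumor. Each group is 1 mRNA library from a pool of 3 tumor samples, so nothing could be tested against replicates. One label calls the mock livers native and the design text calls all livers tumor-bearing, so the tumor state of the mock group is uncertain here. After collagenase digestion, CD45hi CD3+ T cells and the remaining CD45hi fraction were collected separately in every group and then loaded together on 10x 3′ chemistry. The labels give no strain, age, sex or promoter for the nuclease.

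NRF2, encoded by Nfe2l2, is held in the cytoplasm and sent for degradation by KEAP1 until electrophiles or oxidants modify KEAP1. It then pairs with small MAF proteins at antioxidant response elements, where BACH1 acts as a repressor that haem removes. Among the products, haem oxygenase 1 (Hmox1) breaks down haem and is high in macrophages that take up red cells, Gclm is the modifier subunit of the enzyme that starts glutathione synthesis, and Txnrd1, Srxn1 and Prdx1 run the thioredoxin and peroxiredoxin cycle. Gpx1 and Gpx4 reduce peroxides with glutathione, Gpx4 acting on membrane lipids, while Sod1 (cytosol) and Sod2 (mitochondria) convert superoxide to peroxide. Txnip works the other way: its product binds and inhibits thioredoxin and limits glucose uptake, and its expression follows glucose.

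The stretches of promoter that carry the core of an antioxidant response element show which members have that sequence next to their start. RefSeq promoter windows of 300 bases (GRCm38.p6) were held for 9 of the 10 genes; none was held for Hmox1. The core TGACNNNGC was searched on both strands. The 4 matches upstream of a start are given on the plus strand, with the match, which lies on the minus strand and so reads reversed, in capitals:
Gclm, chr3:122245393-122245461: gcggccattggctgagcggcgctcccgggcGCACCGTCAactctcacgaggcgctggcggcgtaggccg
Txnrd1, chr10:82859084-82859152: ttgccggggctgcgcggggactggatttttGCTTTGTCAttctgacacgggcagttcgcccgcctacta
Prdx1, chr4:116685436-116685504: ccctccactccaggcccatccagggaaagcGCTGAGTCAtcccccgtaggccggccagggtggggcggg
Sod1, chr16:90220676-90220744: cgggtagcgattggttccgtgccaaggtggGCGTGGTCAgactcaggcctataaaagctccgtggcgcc

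Distances are counted from the start on which each window is set. In Gclm and in the matching Txnrd1 window that start lies downstream of the gene's first base listed below. The match began 134 bases before the start in Gclm, 92 in Txnrd1 (in 1 of its 3 windows), 133 in Prdx1 and 56 in Sod1, and lay 28 bases after it in Srxn1. Thus 5 of 9 members had the core in a window, against 14.0% of 27025 genes and 12.4% of all 32851 windows. No match was found in the windows of Gpx1, Gpx4 (4 windows), Sod2 and Txnip. The E-box CACGTG, searched because a pair of E-boxes carries the glucose response of Txnip, was in none of the 9 members' windows and in those of 8.09% of genes. These letters are a description of the windows only. On GRCm38.p6 the genes lie at chr8:75093618-75100593 (Hmox1), chr3:122245487-122267215 (Gclm), chr10:82833951-82897724 (Txnrd1), chr2:152105524-152111376 (Srxn1), chr4:116685599-116700000 (Prdx1), chr9:108339080-108340342 (Gpx1), chr10:80047166-80056439 (Gpx4), chr16:90220762-90226333 (Sod1), chr17:13007839-13018119 (Sod2) and chr3:96557957-96561857 (Txnip). RefSeq also lists pseudogenes of Gpx4 (Gpx4-ps1, Gpx4-ps2) and Prdx1 (Prdx1-ps), and how reads shared with them were counted is not given in the sources used here, so the levels of both genes are uncertain to that extent.

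Barcodes with at least 500 genes, at least 1000 gene UMIs and at most 10% mitochondrial UMIs numbered 6068 in mock, 7332 in AAV-sgSCR and 7094 in AAV-sgBaat, with 31256049, 61084903 and 46301256 gene UMIs. Barcodes carrying marker UMIs of different lineages (362, 1202 and 1600) were left out. The mixed barcodes that held both T cell and C1q macrophage genes numbered 16, 300 and 688. The values given further below for barcodes with both macrophage and T cell genes rest on fewer barcodes, whose numbers are given there. A lineage name below stands for barcodes that met a marker rule ("CD8 T" for CD8 T cell-like, and so on). Mock held few myeloid barcodes: 69 of classical monocytes, 8 of neutrophils and 2 of macrophages. Macrophage markers summed to 1.41, 22.2 and 40.8 CPM (counts per 1000000 gene UMIs) in CD8 T barcodes of mock, AAV-sgSCR and AAV-sgBaat, and neutrophil markers to 4.50, 416 and 259 CPM, so RNA of other cells moved with the groups. Between 10 and 16 passing barcodes were shared by any 2 libraries.

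Levels are UMIs summed over a lineage as CPM of its gene UMIs, with an exact Poisson 95% interval that covers counting error only. A 3′ library gives no measure per transcript length, so levels are compared for 1 gene across lineages and not between genes.

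**Figure D1:**
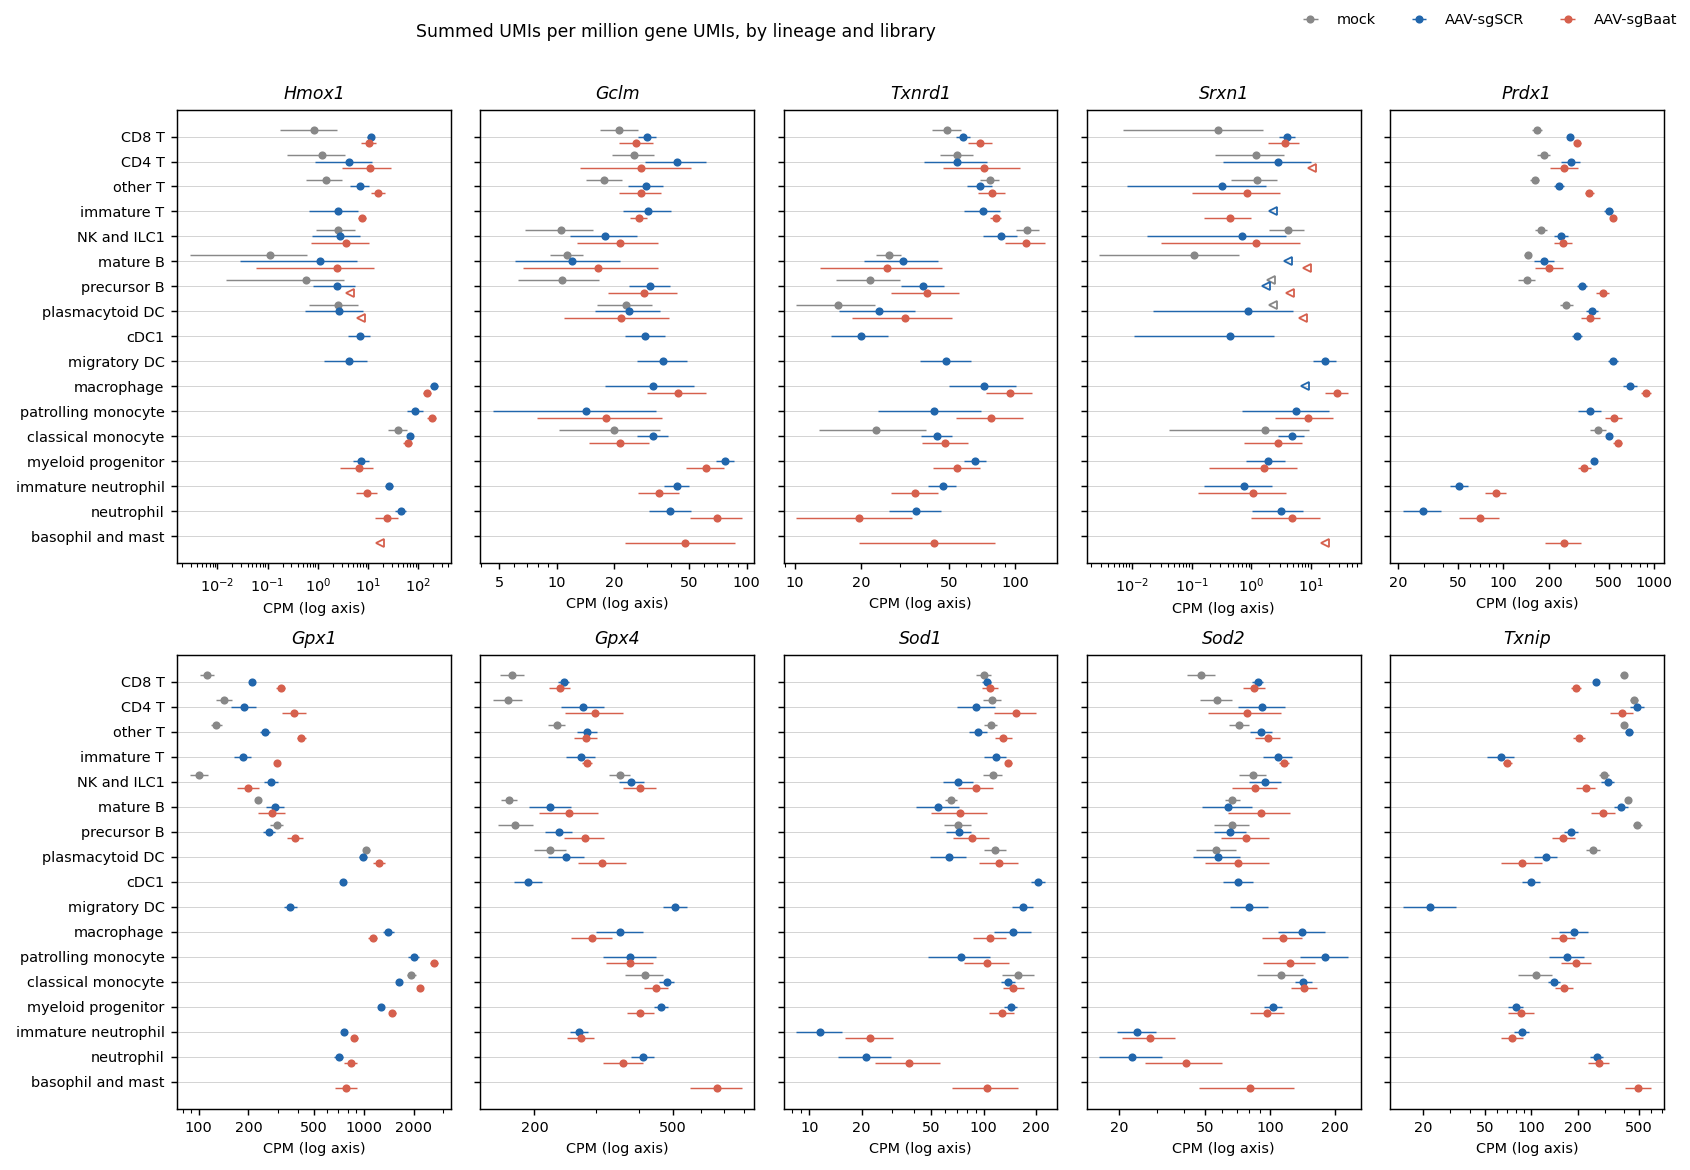
Level of each of the 10 genes (horizontal log axis, CPM) in each lineage (rows) with at least 50 barcodes, by library. Points are levels from summed counts, lines are exact 95% Poisson intervals, and open triangles mark the upper limit where no UMI was found; Hmox1 peaks in macrophages and monocytes, Prdx1 in macrophages and Txnip is high in mature lymphocytes.

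Hmox1 was a gene of macrophages and monocytes. In macrophages it stood at 209 CPM (interval 170 to 255) in AAV-sgSCR and 154 (127 to 184) in AAV-sgBaat; in patrolling monocytes at 88.2 and 187; and in classical monocytes at 40.0 in mock, 68.2 in AAV-sgSCR and 62.3 in AAV-sgBaat. Neutrophils had 44.7 and 24.4 CPM in AAV-sgSCR and AAV-sgBaat. Mature B cells, a lineage with hardly any Hmox1, had 1 UMI in each library (0.111, 1.10 and 2.37 CPM). The share of macrophage barcodes with a Hmox1 UMI was 46.7% in AAV-sgSCR and 24.2% in AAV-sgBaat at median depths of 6395 and 3437 UMIs. After thinning to 1000 UMIs these shares were 10.7% and 9.47%, against 0.329% and 0.521% in mature B barcodes before thinning (median depths 2660 and 2035) and 0% and 0.521% after, so at equal depth the shares of the libraries lay closer together.

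Within a lineage Hmox1 UMIs were concentrated in few barcodes. In patrolling monocytes of AAV-sgBaat, 33 of 82 UMIs came from 1 barcode. The macrophages of the libraries also differed in makeup: Mmp12 and Vcam1 were among the 10 leading genes in both, while Vsig4, Clec4f and Cd5l, genes of resident liver macrophages (Kupffer cells), were so in AAV-sgSCR and Cxcl9 and Ccl12 in AAV-sgBaat. Without barcodes that had a UMI of Clec4f, Vsig4 or Timd4, Hmox1 stood at 142 CPM (65 barcodes) and 151 CPM (189 barcodes), a log2 ratio of 0.09 (-0.38 to 0.57). In barcodes with both macrophage and T cell genes the gap was wider, at 100.3 CPM in AAV-sgSCR (278 barcodes) against 48.7 CPM in AAV-sgBaat (612 barcodes), a ratio of -1.04 (-1.24 to -0.85), and the part of T cell RNA in that gap was not tested. Slc40a1, the iron exporter ferroportin that works downstream of haem breakdown, was at 361 CPM in all macrophage barcodes of AAV-sgSCR and 95.9 CPM in those of AAV-sgBaat.

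T cells of the AAV libraries carried more Hmox1 than those of mock, at a low level. CD8 T barcodes had 0.843 CPM in mock (3 UMIs), 11.4 in AAV-sgSCR (133 UMIs in 50 barcodes) and 10.3 in AAV-sgBaat (37 UMIs in 29 barcodes). Of the 133 UMIs, 49 came from 1 barcode, and without it the AAV-sgSCR level was 7.22 CPM. Other T barcodes are the T barcodes that met none of the immature T, CD8 T and CD4 T rules. They can hold UMIs of neither CD8 nor CD4, of both, or too few of CD8 for its rule. Their levels were 1.45, 6.99 and 16.0 CPM. Immature T barcodes had 2.48 in AAV-sgSCR (4 UMIs) and 7.73 in AAV-sgBaat (104 UMIs, 24 of them in 1 barcode). Macrophage markers were also higher in T barcodes of the AAV libraries. In macrophages, Hmox1 had 2.84 UMIs per 100 macrophage marker UMIs in AAV-sgSCR and 1.87 in AAV-sgBaat. At these ratios the marker UMIs in CD8 T barcodes would bring 0.630 CPM of Hmox1 in AAV-sgSCR and 0.763 CPM in AAV-sgBaat. The ratio was far higher in classical monocytes, at 75.1 and 77.4 per 100, and in patrolling monocytes, at 60.8 and 105. The 0.630 and 0.763 CPM thus hold for macrophages as the source only, and the part of RNA from other cells was not tested. In CD8 T barcodes with no macrophage marker UMI, Hmox1 stood at 0.854, 8.63 and 7.07 CPM; the 49-UMI barcode was among these, and without it the AAV-sgSCR level was 3.77.

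Gclm was found in every lineage drawn, between 10.5 and 77.1 CPM. It was highest in myeloid progenitors of AAV-sgSCR (77.1 CPM, interval 69.0 to 86.0; 61.1 in AAV-sgBaat) and in neutrophils of AAV-sgBaat (70.0, interval 50.7 to 94.3; 39.8 in AAV-sgSCR). CD8 T barcodes had 21.4 CPM in mock, 29.9 in AAV-sgSCR and 26.3 in AAV-sgBaat, and mature B barcodes 11.3, 12.1 and 16.6. The progenitors of both libraries had Prtn3, Ctsg, Elane, Mpo and Ms4a3 among their 10 leading genes, and those of AAV-sgBaat also had Prg2 and Prg3.

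Txnrd1, thioredoxin reductase 1, was highest in NK and ILC1 barcodes in all 3 libraries, at 114, 86.0 and 112 CPM in mock, AAV-sgSCR and AAV-sgBaat. Macrophages came next in the AAV-sgBaat library (94.6 CPM, interval 74.0 to 119), with an interval that overlapped that of NK and ILC1 barcodes. CD8 T barcodes had 48.9, 58.0 and 69.6 CPM. The lowest levels were those of plasmacytoid dendritic cells in mock (15.6), cDC1 in AAV-sgSCR (19.9) and neutrophils in AAV-sgBaat (19.5).

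Srxn1, the sulfiredoxin that repairs over-oxidised peroxiredoxins, was at or near 0 in most lineages. Its highest levels were 27.6 CPM in macrophages of AAV-sgBaat (21 UMIs in 14 of 190 barcodes) and 17.3 CPM in migratory dendritic cells of AAV-sgSCR (21 UMIs in 14 of 97 barcodes). The 75 macrophage barcodes of AAV-sgSCR had no Srxn1 UMI, where 3 counts would be 6.41 CPM, so the AAV-sgBaat level was at least 4.30-fold higher than that floor. Barcodes with both macrophage and T cell genes did not repeat that gap: they had 7.24 CPM of Srxn1 in AAV-sgSCR (278 barcodes) and 5.51 CPM in AAV-sgBaat (612 barcodes). CD8 T barcodes had 1, 47 and 13 UMIs of Srxn1, or 0.281, 4.04 and 3.63 CPM.

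Prdx1, a cytosolic peroxiredoxin, was highest in macrophages, at 695 CPM (621 to 774) in AAV-sgSCR and 887 CPM (821 to 956) in AAV-sgBaat. Classical monocytes (424, 500.4 and 572 CPM in mock, AAV-sgSCR and AAV-sgBaat) and immature T barcodes (500.3 and 536 in AAV-sgSCR and AAV-sgBaat) were among the next. Neutrophils were lowest, at 29.2 and 70.0 CPM, with immature neutrophils at 51.0 and 88.9. Among CD8 T barcodes the order was mock, AAV-sgSCR, AAV-sgBaat, at 167 (154 to 181), 278 (268 to 288) and 310.1 (292 to 329) CPM, and no 2 of these intervals overlapped. The same order held in other T barcodes (161, 233 and 371 CPM) and in precursor B barcodes (143, 333 and 456 CPM), again without overlap of the intervals.

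Gpx1 was a myeloid gene. Patrolling monocytes had 1997 CPM in AAV-sgSCR and 2672 in AAV-sgBaat, and classical monocytes had 1942, 1632 and 2181 CPM in mock, AAV-sgSCR and AAV-sgBaat. Lymphocytes lay well below: in CD8 T barcodes Gpx1 was at 112 CPM (101 to 123) in mock, 209.9 (202 to 218) in AAV-sgSCR and 314 (296 to 333) in AAV-sgBaat. Other T barcodes followed the same order at 128, 251 and 419 CPM. NK and ILC1 barcodes had 100.5, 275 and 199.5 CPM, so there the AAV-sgSCR library was the highest.

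Gpx4 was even among lineages, and in both AAV libraries the fold between its highest and lowest lineage was the smallest among the members that had UMIs in every lineage. Its lowest and highest levels were 168 CPM (CD4 T) and 414 CPM (classical monocytes) in mock, 192 (cDC1) and 506 (migratory dendritic cells) in AAV-sgSCR, and 237 (CD8 T) and 666 (basophil and mast) in AAV-sgBaat. The fold between them was 2.47, 2.63 and 2.81.

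The superoxide dismutases were low in neutrophils. Sod1 was at 21.1 CPM in neutrophils and 11.5 in immature neutrophils of AAV-sgSCR, and at 37.5 and 22.4 in AAV-sgBaat. Every other lineage with at least 50 barcodes had between 55.0 and 206 CPM. Sod2 showed a similar gap, at 23.0 and 24.1 CPM in neutrophils and immature neutrophils of AAV-sgSCR and 40.7 and 27.7 in AAV-sgBaat, against 142 and 143 CPM in classical monocytes. In CD8 T barcodes Sod2 stood at 48.1 CPM (41.1 to 55.8) in mock, below 87.4 (82.1 to 92.9) in AAV-sgSCR and 84.2 (74.9 to 94.2) in AAV-sgBaat, while the intervals of Sod1 overlapped in the 3 libraries (100.1, 104 and 109 CPM).

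Txnip was high in lymphocytes. Mature lymphocytes of mock had 295 to 465 CPM (NK and ILC1, 295; CD8 T, 397; CD4 T, 465). Immature T barcodes had 63.9 in AAV-sgSCR and 70.1 in AAV-sgBaat, and migratory dendritic cells 22.3. Basophil and mast barcodes of AAV-sgBaat had 494 CPM. CD8 T barcodes differed by library: Txnip was at 397 CPM (376 to 418) in mock, 264 (254 to 273) in AAV-sgSCR and 195 (180.4 to 209.6) in AAV-sgBaat. Precursor B barcodes had 486, 180.5 and 162 CPM. Plasmacytoid dendritic cells had 252, 124 and 87.2 CPM, also in the order mock, AAV-sgSCR, AAV-sgBaat. The precursor B barcodes of mock were led by Vpreb3 and Ms4a1 and those of the AAV libraries by Vpreb1 and Igll1, genes of an earlier B cell stage, so their makeup differed too.

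A value is called past the fold where 2 libraries differ by at least 1.5-fold and the gene has at least 20 UMIs in the library with the higher CPM, in lineages with at least 100 barcodes in both. Between AAV-sgBaat and AAV-sgSCR, 86 of 100 pairs of gene and lineage had enough UMIs; 11 of them were past the fold with AAV-sgBaat higher and 4 with AAV-sgBaat lower. Over all genes and the same 10 lineages, 6.01% of values were past the fold in the higher direction and 12.9% in the lower. No member was past the fold in CD8 T barcodes, where 4.34% and 11.7% of all genes were. None was past it in mature B, precursor B, NK and ILC1, classical monocyte or myeloid progenitor barcodes either, where 3.14%, 3.97%, 4.42%, 3.31% and 4.66% of all genes were higher and 18%, 15.9%, 12.1%, 11.8% and 16.3% lower. The values lay mainly in neutrophils (4 higher, 2 lower; 5.31% and 26.9% of all genes), other T barcodes (3 higher, 1 lower; 12.4% and 10.1%), immature neutrophils (2 higher, 1 lower; 5.76% and 15.7%) and immature T barcodes (2 higher, none lower; 9.58% and 2.22%). Neutrophil barcodes left out as mixed numbered 121 beside 432 kept in AAV-sgSCR, and 225 beside 201 kept in AAV-sgBaat. The median log2 ratio of the members tested was 0.24 in neutrophils against -0.28 over all genes, and -0.05 against -0.07 in CD8 T barcodes.

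**Figure D2:**
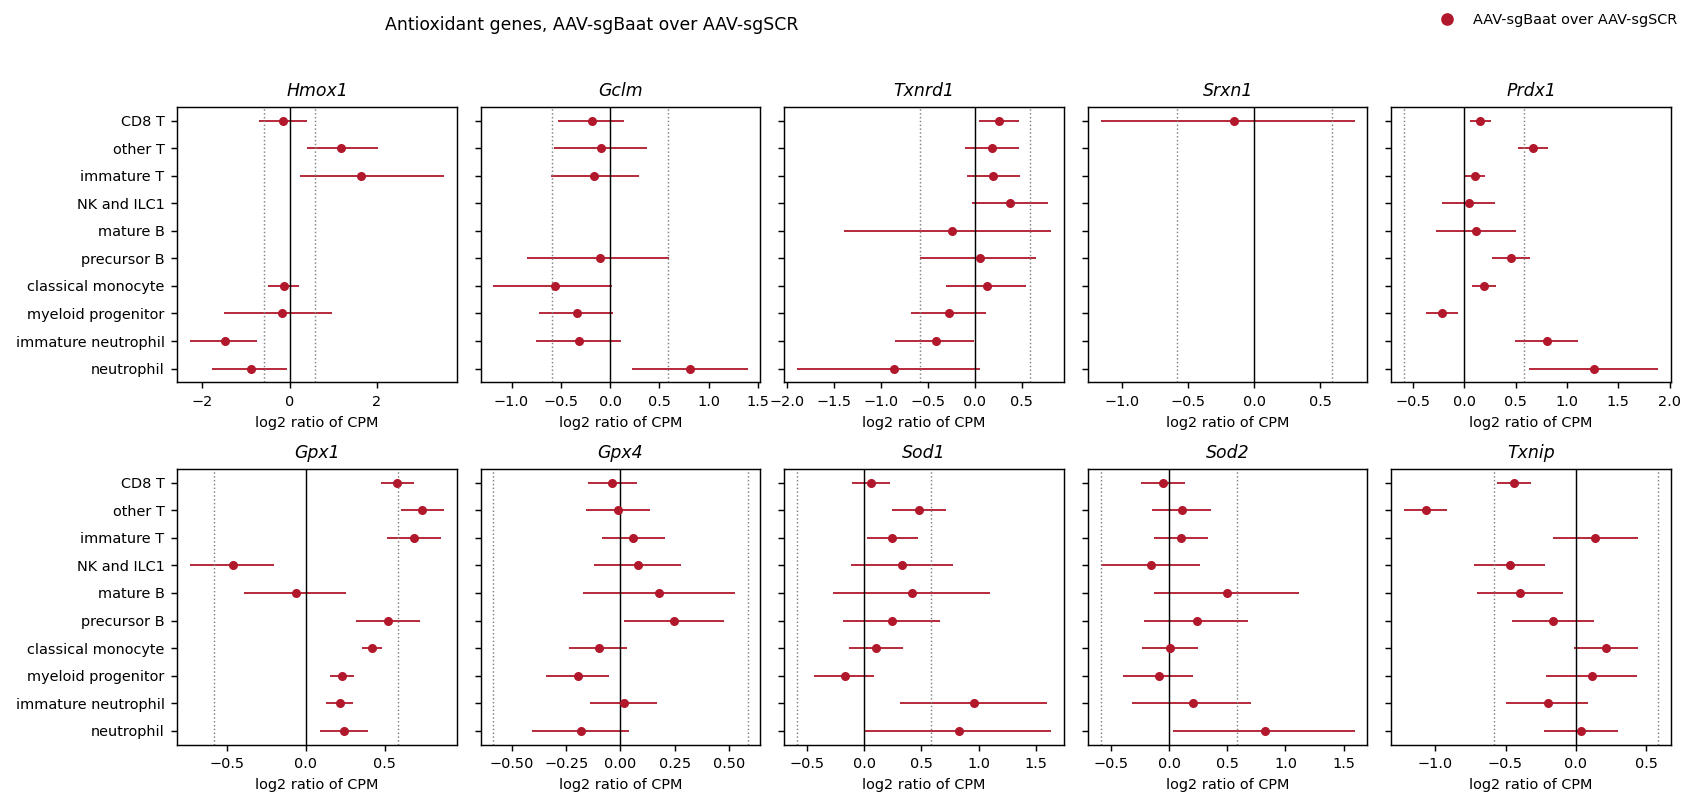
Log2 ratio of CPM in AAV-sgBaat over AAV-sgSCR (horizontal axis) for each gene in each lineage. Points are ratios and lines are exact 95% intervals for counting error, with dotted lines at 1.5-fold; Gpx1 and Prdx1 lie mostly to the right of 0, while Txnip lies furthest left in other T barcodes.

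Gpx1 was higher in AAV-sgBaat in 8 of 10 lineages, with a median log2 ratio of 0.33. It was past the fold in other T barcodes (0.74, interval 0.60 to 0.87) and immature T barcodes (0.68, 0.51 to 0.86). In CD8 T barcodes it was 0.58 (0.48 to 0.68), just short of 1.5-fold. NK and ILC1 barcodes went the other way, at -0.47 (-0.74 to -0.20). The other T ratio was 0.76 and the CD8 T ratio 0.58 in barcodes with no macrophage marker UMI.

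Prdx1 was higher in AAV-sgBaat in 9 of 10 lineages, with a median log2 ratio of 0.18. Past the fold were neutrophils (1.26, 0.63 to 1.89; 43 and 47 UMIs), immature neutrophils (0.80, 0.50 to 1.11) and other T barcodes (0.67, 0.53 to 0.81). The immature neutrophil ratio was -0.15 under the stricter filter of 1000 genes, 2000 UMIs and 5% mitochondrial UMIs. Sod1 was also higher in immature neutrophils (0.96, 0.31 to 1.59; 42 and 45 UMIs) and, with an interval that reached 0, in neutrophils (0.83; 23 and 34 UMIs). Sod2 in neutrophils was 0.82 (0.03 to 1.59; 25 and 37 UMIs) and Gclm there 0.82 (0.22 to 1.40; 43 and 64 UMIs), while Txnrd1 was lower, at -0.86 with an interval that spanned 0 (12 and 57 UMIs) and 0.22 with mixed barcodes kept. Macrophage markers in neutrophil barcodes were at 22.4 CPM in AAV-sgSCR and 58.6 CPM in AAV-sgBaat; their part in these ratios was not tested.

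Hmox1 pointed to opposite sides. It was higher in AAV-sgBaat in immature T (1.64, 0.24 to 3.54) and other T barcodes (1.19, 0.40 to 2.02) and lower in neutrophils (-0.87, -1.78 to -0.06) and immature neutrophils (-1.48, -2.29 to -0.74). The last value rested on 1 barcode: 62 of 104 AAV-sgSCR UMIs came from it, and without the richest barcode of each library the levels were 10.8 and 8.52 CPM and the ratio -0.34 (-1.27 to 0.52). With the same step the immature T ratio was 1.68 (0.08 to 3.99) on 3 UMIs in AAV-sgSCR, the other T ratio 1.01 (0.13 to 1.93) and the neutrophil ratio -0.95 (-1.94 to -0.08). In 2 lineages with 50 to 100 barcodes in a library, Hmox1 was 1.08 higher in patrolling monocytes (0.47 to 1.73) and 0.45 lower in macrophages (log2 ratio -0.45, -0.85 to -0.04). Without the richest barcodes the patrolling monocyte ratio was 0.49 (-0.21 to 1.21).

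Txnip was lower in AAV-sgBaat in other T barcodes, at 430 and 205 CPM in AAV-sgSCR and AAV-sgBaat, a log2 ratio of -1.07 (-1.22 to -0.92). Other T barcodes of AAV-sgBaat were shallower (medians of 2101 and 4207.5 UMIs), and more of them cycled (243 of 864 against 42 of 618, counting barcodes with at least 2 UMIs of Mki67, Top2a, Ube2c and Birc5). Within barcodes that were not cycling the ratio was -0.91 (-1.08 to -0.75), and within cycling barcodes -0.95 (-1.44 to -0.46). The makeup of other T barcodes differed as well. Trdc was among the 10 leading genes in both libraries, Gzmc, Rora and Klra7 in AAV-sgSCR, and Il7r, Gzmb and Klrk1 in AAV-sgBaat. The part of makeup in the Txnip ratio was not tested. Lower ratios short of the fold were found in NK and ILC1 (-0.47), CD8 T (-0.44) and mature B barcodes (-0.39), each with an interval below 0. Gpx4 differed least, between -0.20 and 0.25 in the 10 lineages.

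Against mock, 7 lineages could be compared with AAV-sgSCR and 5 with AAV-sgBaat. Both comparisons share the mock library, so they are not independent, and each one's own values are given. AAV-sgSCR was past the fold above mock for 18 of 58 tested pairs and below it for 5, where 15.8% and 17.6% of all genes' values were. AAV-sgBaat was past the fold above mock for 13 of 40 pairs and below it for 3, where 16.4% and 22.8% of all genes' values were. The share of tested pairs above mock was 31.0% and 32.5%.

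**Figure D3:**
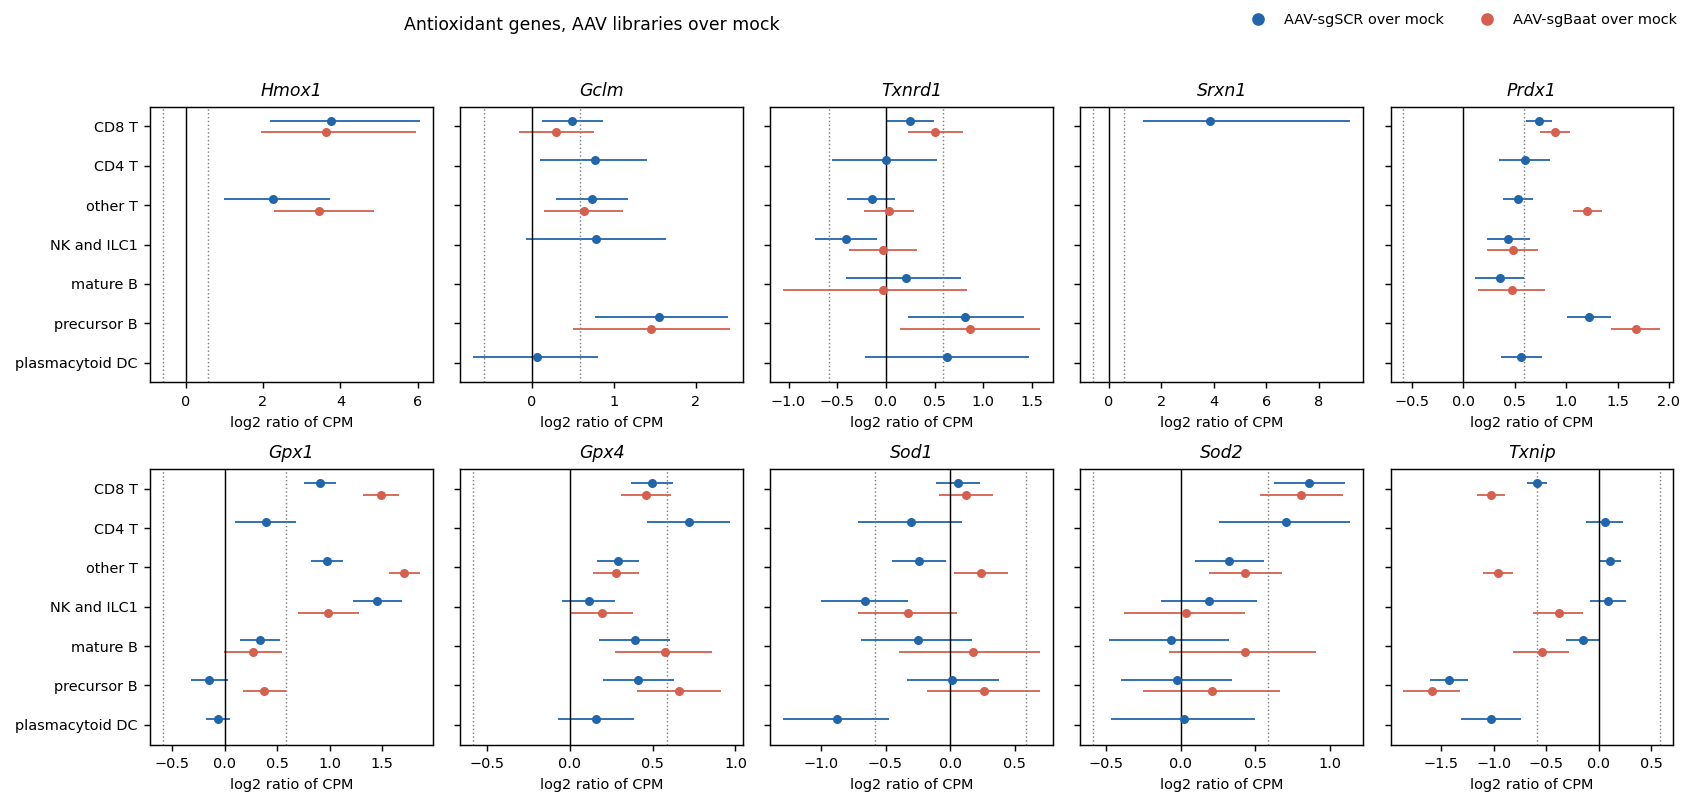
Log2 ratio of CPM in AAV-sgSCR (blue) and AAV-sgBaat (red) over mock (horizontal axis) for each gene in each lineage. Points are ratios, lines are exact 95% counting intervals and dotted lines mark 1.5-fold; Prdx1 and Gpx4 lie to the right of 0 in every lineage drawn, and Txnip lies left of 0 in every lineage drawn for AAV-sgBaat.

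CD8 T barcodes of both AAV libraries stood apart from mock in several members. In AAV-sgSCR 5 of 10 members were past the fold above mock and 1 below, beside 26.7% and 7.94% of all genes. The log2 ratios were 3.76 for Hmox1 (2.18 to 6.06; 3 UMIs in mock), 3.84 for Srxn1 (1.30 to 9.18; 1 UMI in mock), 0.91 for Gpx1, 0.86 for Sod2, 0.73 for Prdx1 and -0.59 for Txnip, the last at -0.58 and short of the fold without the richest barcodes. In AAV-sgBaat 4 of 9 members were above and 1 below, beside 20% and 11.4% of all genes: Hmox1 at 3.62, Gpx1 at 1.49, Prdx1 at 0.89, Sod2 at 0.81 and Txnip at -1.03. The median log2 ratio of the members was 0.61 in AAV-sgSCR and 0.51 in AAV-sgBaat, against 0.20 and 0.08 over all genes. With CD8 T barcodes that held no macrophage marker UMI, Gpx1 was 0.67 above mock in AAV-sgSCR and 1.25 in AAV-sgBaat, and Prdx1 0.68 and 0.83. Neutrophil markers also differed between CD8 T barcodes of mock, AAV-sgSCR and AAV-sgBaat (4.50, 416 and 259 CPM), and their part in these ratios was not tested.

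Other lineages are given with the shares of all genes above and below mock. Members past the fold above and below mock in AAV-sgSCR numbered 4 and 0 of 8 in CD4 T (9.97% and 20.2%), 3 and 0 of 9 in other T (11.2% and 13.5%), 3 and 1 of 8 in precursor B (30.1% and 20%), 2 and 1 of 8 in NK and ILC1 (8.64% and 25.9%), and 1 and 2 of 8 in plasmacytoid dendritic cells (14.8% and 22.5%). For AAV-sgBaat they numbered 4 and 1 of 9 in other T (17.3% and 20.9%), 4 and 1 of 8 in precursor B (27% and 30.8%) and 1 and 0 of 7 in NK and ILC1 (5.7% and 31.8%). No member was past the fold in mature B barcodes, where 4.68% and 18% of all genes were in AAV-sgSCR and 11.8% and 23% in AAV-sgBaat.

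In other T barcodes Hmox1 was 2.27 above mock in AAV-sgSCR and 3.46 in AAV-sgBaat, Gpx1 0.97 and 1.71, Gclm 0.73 and 0.64, and Prdx1 0.53 and 1.20. Without the richest barcode of each library the AAV-sgSCR ratio of Gclm was 0.45 (-0.02 to 0.92), short of the fold. In other T barcodes that were not cycling, Gclm was at 17.7, 20.1 and 23.7 CPM in mock, AAV-sgSCR and AAV-sgBaat. In the cycling ones it was at 20.9, 83.5 and 37.5 CPM, and the part of cycling in the Gclm ratios was not tested. Txnip over all other T barcodes was 0.11 in AAV-sgSCR and -0.96 in AAV-sgBaat. Markers of other cells differed in the same barcodes of mock, AAV-sgSCR and AAV-sgBaat: macrophage markers summed to 3.11, 23.8 and 96.6 CPM, neutrophil markers to 5.18, 422 and 691 CPM and haemoglobin genes to 27.3, 2727 and 213 CPM. Their part in the other T ratios, between the AAV libraries as well as against mock, was not tested beyond the values without macrophage marker UMIs. NK and ILC1 barcodes had Gpx1 at 1.45 and 0.99; in AAV-sgSCR they also had Gclm at 0.78 with an interval that spanned 0, and Sod1 at -0.66. Precursor B barcodes had Gclm at 1.55 and 1.45, Prdx1 at 1.22 and 1.68, Txnrd1 at 0.81 and 0.87 and Txnip at -1.43 and -1.59, and of the 5 lineages compared for AAV-sgBaat Gpx4 was past the fold in this one (0.66). The Gclm and Txnrd1 ratios there rest on 18 and 37 UMIs in mock, and after thinning to 1000 UMIs a barcode Gclm was at -2.02 and -0.38 (2 and 3 UMIs, with 8 in mock) and Txnrd1 in AAV-sgBaat at -0.14 (4 UMIs, with 9 in mock). In precursor B barcodes of AAV-sgSCR, Gclm was at 51.9 CPM in cycling barcodes and 12.1 in the others. In those of AAV-sgBaat it was at 39.8 and 12.3 CPM. Txnrd1 was at 50.9 and 26.9 CPM in AAV-sgSCR, and at 53.7 and 18.4 in AAV-sgBaat. Cycling and other barcodes were not compared in precursor B barcodes of mock, and the part of cycling in these ratios was not tested. In CD4 T barcodes, compared for AAV-sgSCR alone, Gclm (0.77), Gpx4 (0.72), Sod2 (0.71) and Prdx1 (0.59) were past the fold above mock. Without the richest barcode of each library Prdx1 was at 0.51 (0.25 to 0.76), short of it. With the same step Gclm was at 0.64 with an interval that spanned 0 (-0.07 to 1.32). Plasmacytoid dendritic cells of AAV-sgSCR had Txnip at -1.02, Sod1 at -0.88 and Txnrd1 at 0.62, the last with an interval that spanned 0 and at 0.51 without the richest barcodes.

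The antibody tags for CD90.1 and CD90.2, 2 alleles of the T cell surface protein Thy1, split the CD8 T barcodes. The labels do not say where CD90.1 cells come from. Among barcodes with at least 100 CD90 tag UMIs, 1164 were CD90.1-dominant and 685 CD90.2-dominant in AAV-sgSCR, 321 and 369 in AAV-sgBaat, and 12 and 515 in mock. CD90.1 barcodes are therefore almost confined to the AAV libraries, and mock can be compared in CD90.2-dominant barcodes only.

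**Figure D4:**
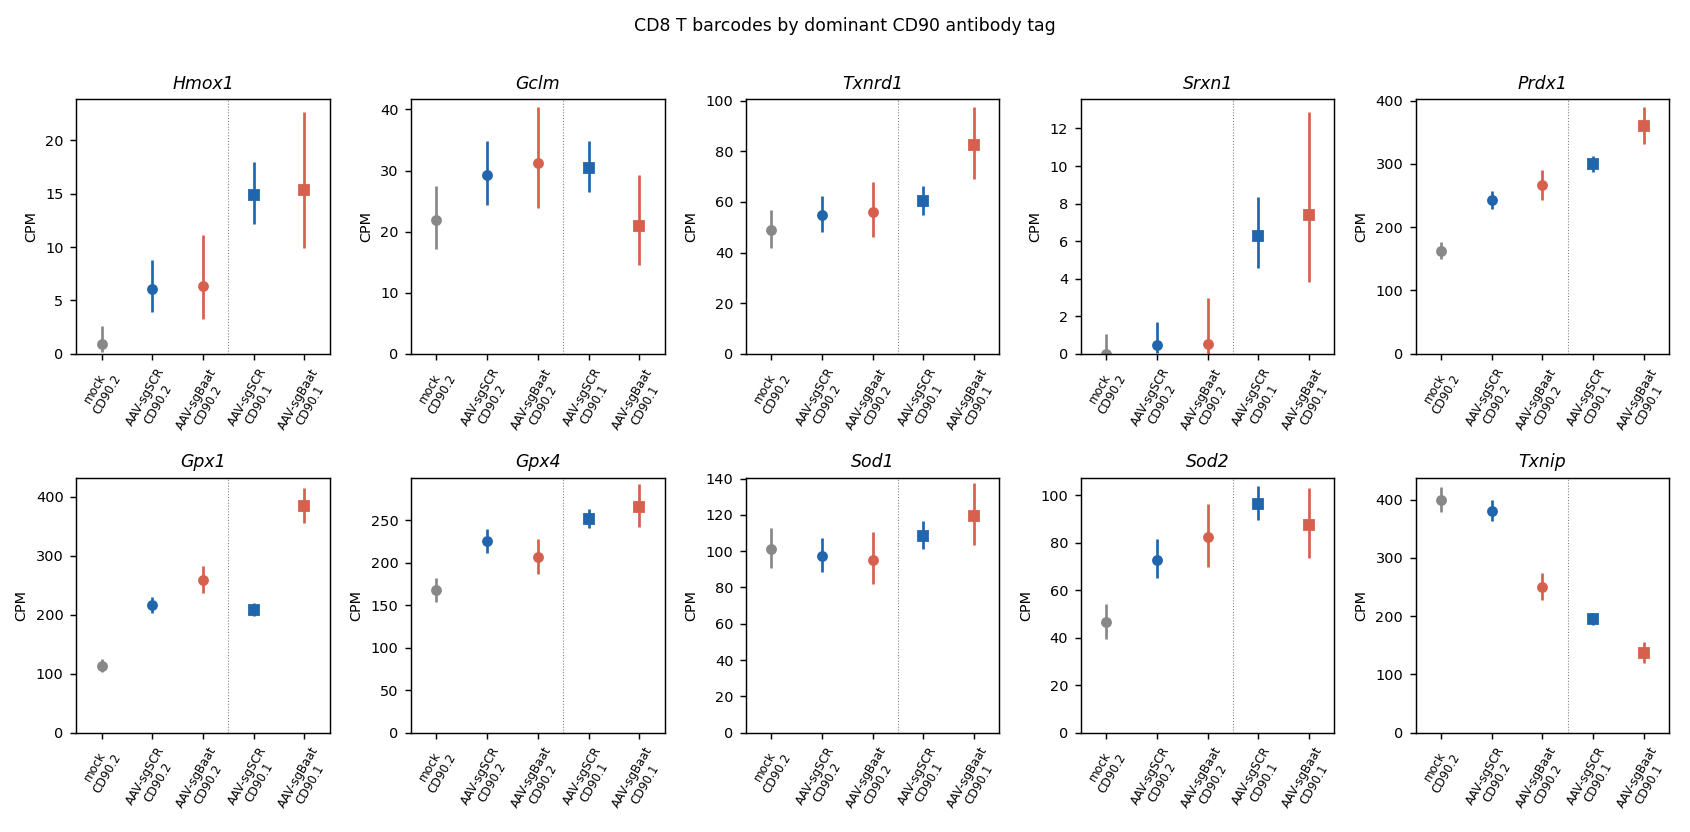
Level of each gene (vertical axis, CPM) in CD8 T barcodes split by the dominant CD90 tag. Points are levels from summed counts and lines are exact 95% Poisson intervals, with CD90.2-dominant barcodes of the 3 libraries as circles on the left and CD90.1-dominant barcodes of the AAV libraries as squares on the right; Txnip is lowest and Srxn1 and Prdx1 highest in CD90.1-dominant barcodes.

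Txnip was lower in CD90.1-dominant barcodes in both AAV libraries: 195 against 381 CPM in AAV-sgSCR (log2 ratio -0.96, -1.07 to -0.86) and 136 against 249.7 in AAV-sgBaat (-0.88, -1.11 to -0.64). Srxn1 was almost limited to CD90.1-dominant barcodes, with 45 of 47 UMIs in AAV-sgSCR and 12 of 13 in AAV-sgBaat. That is 6.26 against 0.464 CPM (3.75, 1.82 to 6.84) and 7.38 against 0.530 CPM (3.80, 1.04 to 9.22). Prdx1 was 0.30 and 0.43 higher in CD90.1-dominant barcodes of AAV-sgSCR and AAV-sgBaat, with intervals above 0 in both. Hmox1 was at 14.9 against 6.03 CPM in AAV-sgSCR and 15.4 against 6.36 in AAV-sgBaat. The 49-UMI barcode lay on the CD90.1 side: without the richest barcode of each side the AAV-sgSCR ratio moved from 1.30 to 0.66 (-0.07 to 1.44), and the AAV-sgBaat levels were 13.5 and 4.77 CPM (ratio interval 0.33 to 2.81). Gpx1 showed no such gap in AAV-sgSCR (-0.05, -0.17 to 0.07) and was 0.57 higher in CD90.1-dominant barcodes of AAV-sgBaat (0.40 to 0.75).

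Within CD90.2-dominant barcodes several differences from mock remained. AAV-sgSCR was above mock for Hmox1 (2.78, 1.08 to 5.15; 26 against 3 UMIs), Gpx1 (0.93), Sod2 (0.65), Prdx1 (0.57) and Gpx4 (0.42), all with intervals above 0. AAV-sgBaat was above mock for Hmox1 (2.86), Gpx1 (1.19), Sod2 (0.82), Prdx1 (0.71) and Gpx4 (0.30). Txnip behaved differently: in CD90.2-dominant barcodes it was at 399, 381 and 249.7 CPM, a log2 ratio to mock of -0.07 (-0.17 to 0.04) in AAV-sgSCR and -0.68 (-0.83 to -0.53) in AAV-sgBaat. The ratio of AAV-sgSCR to mock over all CD8 T barcodes (-0.59) was thus not seen in the CD90.2-dominant ones. Between the AAV libraries, Txnip was lower in AAV-sgBaat on both sides (-0.52 in CD90.1-dominant and -0.61 in CD90.2-dominant barcodes), and Gpx1 was higher on both (0.88 and 0.26).

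Cycling barcodes separated Prdx1 and Txnip from the other members. Cycling and other barcodes were compared in 12 profiles of library and lineage (CD8 T, other T, immature T, precursor B and myeloid progenitor). Prdx1 was higher in cycling barcodes in 12 of 12, with a median log2 ratio of 0.85 (range 0.16 to 1.32). Txnip was lower in 12 of 12, with a median of -1.29 (range -2.01 to -0.49), and every interval of both genes lay on 1 side of 0. Gpx4 was higher in 11 of 12 profiles and Gclm, Txnrd1 and Sod1 in 10 of 12, with 4 intervals above 0 for each of these 4 genes. Gpx1 was lower in 9 of 12, and Hmox1 was higher in 5 of 10 profiles and lower in 5.

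**Figure D5:**
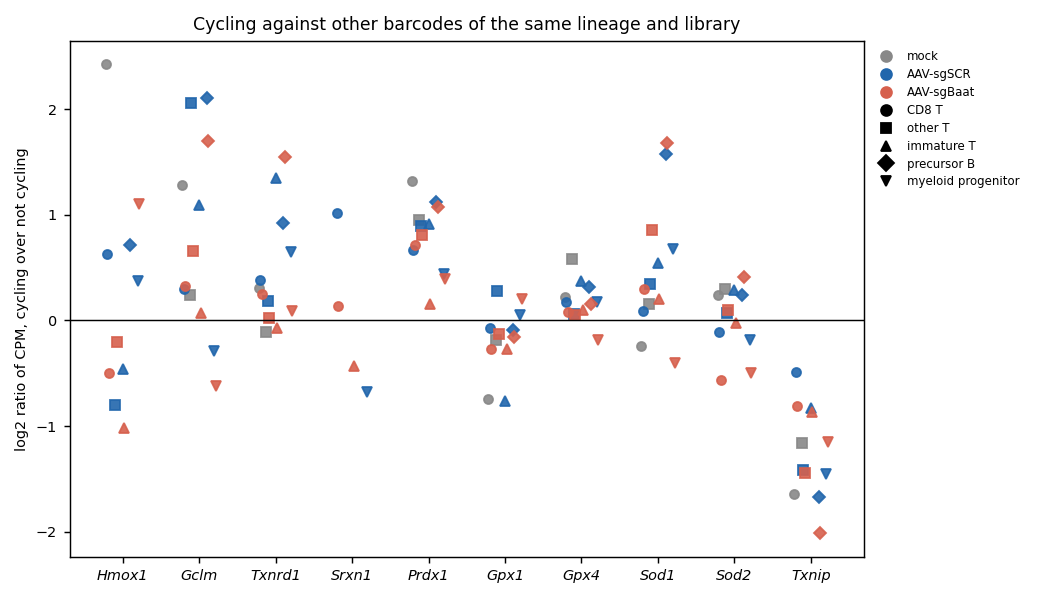
Log2 ratio of CPM in cycling over other barcodes of the same library and lineage (vertical axis) for each gene (horizontal axis), with a point for each profile, the library by colour and the lineage by marker shape. Points of Prdx1 lie above 0 and points of Txnip below 0 in all 12 profiles.

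Among CD8 T barcodes Txnip stood at 135, 199 and 122 CPM in cycling barcodes of mock, AAV-sgSCR and AAV-sgBaat, against 421, 279 and 214 in the others. Mock had only 27 cycling CD8 T barcodes, AAV-sgSCR 221 and AAV-sgBaat 106. In barcodes that were not cycling, Txnip was still below mock, by a log2 ratio of -0.59 (-0.69 to -0.50) in AAV-sgSCR and -0.97 (-1.11 to -0.83) in AAV-sgBaat, and Prdx1 above it (0.76 and 0.88). Cycling CD8 T barcodes were deeper than the others in each library, with medians of 9139 and 5828 UMIs in mock, 8668 and 5064 in AAV-sgSCR, and 5972 and 4088.5 in AAV-sgBaat. Other T barcodes of AAV-sgBaat had no such depth gap (1941 and 2225 UMIs), and Txnip was lower in their cycling barcodes as well, at 92.2 against 251 CPM.

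A list of 64 further genes covers regulators, the thioredoxin and glutathione systems, NADPH supply, peroxide and superoxide enzymes, haem and iron, the phagocyte oxidase that makes superoxide, and genes that act with Txnip. Between AAV-sgBaat and AAV-sgSCR, 28 of 492 tested pairs of gene and lineage were past the fold above and 36 below, where 6.01% and 12.9% of all genes' values were. Of the 40 pairs of genes that act with Txnip (Arrdc3, Arrdc4, Mlxip, Mlx and Slc2a1), 1 was above and 14 below. Mlxip, a partner in the glucose-sensing factor that drives Txnip, stood at 22.7 CPM in classical monocytes of AAV-sgSCR against 9.80 CPM in those of AAV-sgBaat (-1.21, -2.14 to -0.38), and at 23.2 against 10.9 CPM in other T barcodes (-1.09, -1.79 to -0.42). Slc2a1, a glucose transporter, was at -1.06 in neutrophils. These pairs are low, with 14 to 26 UMIs in AAV-sgBaat for those named.

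In CD8 T barcodes 2 of 56 list genes were past the fold above and none below, beside 4.34% and 11.7% of all genes, so the share above was near that of all genes. They were Nfe2l2, at 32.0, 33.8 and 54.0 CPM in mock, AAV-sgSCR and AAV-sgBaat (0.68 over AAV-sgSCR, 0.42 to 0.93), and Blvrb, a biliverdin and flavin reductase, at 8.15, 14.3 and 26.0 CPM (0.86, 0.48 to 1.23). In other T barcodes Bach1, the repressor of Hmox1, was 0.98 higher in AAV-sgBaat (0.57 to 1.39). Immature neutrophils had Gstm1 at 1.52 and Bach1 at -0.74, and classical monocytes had Gsr, glutathione reductase, at 601 CPM in AAV-sgSCR against 379 CPM in AAV-sgBaat (-0.67, -0.81 to -0.53). Neutrophils had Prdx2 at 1.59 on 31 and 27 UMIs. In immature T barcodes the list was above in 10 of 55 genes (9.58% of all genes), among them Gsto1 (1.18) and Mgst1 (1.07); macrophage markers there summed to 12.4 CPM in AAV-sgSCR and 27.5 CPM in AAV-sgBaat, and their part was not tested.

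Against mock the list was above the fold in 107 of 349 pairs and below in 41 for AAV-sgSCR, and in 85 of 233 and 32 for AAV-sgBaat. Over all genes 15.8% of values were above and 17.6% below in AAV-sgSCR, and 16.4% and 22.8% in AAV-sgBaat. Thioredoxin system genes made up 31 above and 6 below of 84 pairs, glutathione genes 23 and 5 of 55, and NADPH genes 15 and 1 of 30 in AAV-sgSCR. In AAV-sgBaat the counts were 23 and 3 of 57, 16 and 3 of 34, and 14 and 0 of 19. Regulators had 1 above and 14 below of 41 pairs in AAV-sgSCR and 5 above and 9 below of 27 in AAV-sgBaat, and the difference from the other groups of genes was not tested. Mafk, a small MAF partner of NRF2, was at -1.79 in AAV-sgSCR in CD4 T, -1.75 in NK and ILC1 and -1.62 in mature B barcodes. These rest on 7, 22 and 10 UMIs in AAV-sgSCR, against 84, 122 and 305 in mock. In the same lineages 14 dissociation and stress genes, such as Fos and Hspa1a, summed to 7355, 10783 and 9984 CPM in mock. In AAV-sgSCR they summed to 5503, 6911 and 7034 CPM, and their part in the Mafk ratios was not tested. In precursor B barcodes Txn1, thioredoxin itself, was at 104 CPM in mock, 558 in AAV-sgSCR and 649 in AAV-sgBaat (2.43 and 2.64).

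CD8 T barcodes had 26 of 57 list genes above mock and 3 below in AAV-sgSCR, and 29 of 54 and 5 in AAV-sgBaat. The shares of all genes there were 26.7% above and 7.94% below in AAV-sgSCR, and 20% and 11.4% in AAV-sgBaat. Gstm1, a glutathione transferase, had 3 UMIs in mock, 157 in AAV-sgSCR and 39 in AAV-sgBaat, or 0.843, 13.5 and 10.9 CPM (interval of the log2 ratio of AAV-sgSCR to mock 2.43 to 6.29). Slc7a11, the cystine importer that feeds glutathione synthesis, had 2, 72 and 18 UMIs, or 0.562, 6.19 and 5.03 CPM (log2 ratio 3.46, 1.55 to 6.53). Cybb (2.74 and 3.24), a textbook phagocyte gene, encodes the catalytic subunit of the phagocyte oxidase. It was at 13.2, 88.3 and 124 CPM in mock, AAV-sgSCR and AAV-sgBaat. Neutrophil markers in the same barcodes were at 4.50, 416 and 259 CPM, and macrophage markers at 1.41, 22.2 and 40.8 CPM. The part of RNA from other cells in the Cybb ratios was not tested. Nqo1, a classical NRF2 target, had no UMI in CD8 T barcodes of any library.

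Across 32 profiles of library and lineage with at least 100 barcodes, the genes whose log2(CPM + 1) was most like that of each member were listed by Pearson's r. The profiles share libraries and free RNA, so r is a description. Hmox1 was most like Slc11a1 (0.95), Klra2 and Pla2g7, and Gpx1 most like Clec12a (0.93), Milr1 and Csf2rb. Prdx1 followed Fcf1 (0.94), Mrpl54 and Slc25a5, Sod1 followed Hspa8 (0.95), Fkbp1a and Nufip1, and Sod2 followed Bax (0.91), Triap1 and 9130401M01Rik. Txnip was most like Tgfbr2 (0.89), Ankrd44 and Btg1. Values were lower for Gclm (Gapdh, 0.83; Txn1; Arhgap19), Txnrd1 (Tmem37, 0.80; C1qtnf6; Pdgfb), Gpx4 (Dhrs3, 0.80; Emilin2; Camk1) and Srxn1 (Acp2, 0.79; Camk1; Tnfrsf1b). Between members, r was highest for Prdx1 and Sod2 (0.88), Sod1 and Sod2 (0.83), Prdx1 and Sod1 (0.80) and Hmox1 and Srxn1 (0.78). It was lowest for Gpx1 and Txnip (-0.52) and Gclm and Txnip (-0.51), and was -0.33 for Hmox1 and Txnip.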

How the data were processed

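Values in the deposited files are whole-number UMI counts without normalization, per the file headers; the submitters' processing notes name Cell Ranger and mm10, and the file header gives version 6.0.1. The 3 antibody tags (CD90.1, CD90.2, F4/80) were read from the same matrices; F4/80 was not used. Analysis used Python 3.11.15 with numpy 2.4.6, scipy 1.17.1, pandas 2.3.3, anndata 0.12.19, scanpy 1.11.5 (Scrublet) and matplotlib 3.10.9.

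Lineages were set by marker rules. Barcodes kept (at least 500 genes, 1000 gene UMIs and at most 10% mitochondrial UMIs) were given a lineage from summed marker UMIs (for example, at least 2 of Cd3d, Cd3e and Cd3g for T cells and 4 of C1qa, C1qb and C1qc for macrophages). Barcodes positive for different lineages were left out as likely doublets. Scrublet's automatic threshold called 262, 0 and 1 barcodes in mock, AAV-sgSCR and AAV-sgBaat, so it had not worked in the AAV libraries; removing the highest scores at 0.8% per 1000 barcodes (316, 455 and 470) was an alternative. Raw counts were summed per lineage and library and given as CPM with exact Poisson 95% intervals, shares with exact Clopper-Pearson intervals and log2 ratios with exact conditional binomial intervals; all cover counting error only. For the 1.5-fold call sums under 3 counts were set to 3; printed ratios use the counts as they are, and a sum of 0 was set to 3 for a bound. With 1 library per group there was no test. Ratio intervals were tested on simulated counts. All 10 genes are named; of the 64 other genes, up to 4 with the largest absolute ratio per comparison and lineage among those with at least 50 UMIs were eligible to be named, Slc40a1 and Nqo1 being added after their values were seen; some eligible values are not reported here. The genes, lists and marker rules were chosen with earlier results of these data known. Fewer cells of a state and less RNA per cell cannot be told apart in sums over a lineage.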

Additional observations from a re-analysis of the deposited data

Results flagged for a closer look

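Hmox1 in AAV-sgBaat over AAV-sgSCR had a log2 ratio of 1.64 in immature T barcodes and -1.48 in immature neutrophil barcodes, opposite directions under the same contrast. The difference between these lineages was not tested, since each group is 1 library. Without the richest barcode of each library the ratios were 1.68 (0.08 to 3.99) and -0.34 (-1.27 to 0.52).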

How the results depend on the processing

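No paired analysis was possible because each group is 1 library. Beside 8 other settings, 3 were added after seeing the data: lineages of at least 50 barcodes, lymphocyte barcodes without macrophage marker UMIs, and leaving out the barcode richest in the gene. Between AAV-sgBaat and AAV-sgSCR the higher values (11) numbered 3 with 1000 genes, 2000 UMIs and 5% mitochondrial UMIs, 5 with a gene minimum of 50 UMIs and 17 with lineages of at least 50 barcodes; the lower values (4) numbered 8 with mixed barcodes kept and 2 under the stricter barcode filter. Above mock, AAV-sgSCR had 18, and 8 after thinning to 1000 UMIs; below mock it had 5, and 1 under the stricter filter. AAV-sgBaat was below mock for 3 values, and for 5 after thinning. Thinning leaves few UMIs (2 to 9 a library in the next 4 values): over mock, Gclm in precursor B turned to -2.02 (AAV-sgSCR) and -0.38 (AAV-sgBaat), Txnrd1 there to -0.14 (AAV-sgBaat) and Txnrd1 in plasmacytoid dendritic cells to -0.10 (AAV-sgSCR). Srxn1 in CD8 T had no thinned UMI in mock, so no thinned ratio. Txnrd1 in neutrophils turned to 0.22 with mixed barcodes kept and Prdx1 in immature neutrophils to -0.15 under the stricter filter; the cause was not tested. Values past the fold numbered 15 in AAV-sgBaat over AAV-sgSCR, 23 in AAV-sgSCR over mock and 16 in AAV-sgBaat over mock. Of these, 5, 8 and 11 stayed so after thinning. Under the stricter filter 5 of 7, 13 of 16 and 16 of 16 with a value did, and 14, 18 and 16 without the richest barcode. With lymphocyte barcodes limited to those without macrophage marker UMIs, 13 of 13, 21 of 23 and 16 of 16 did. That setting leaves neutrophil and immature neutrophil barcodes as they were. The 13 of 13 include their values (4 higher and 2 lower, and 2 higher and 1 lower), which could not change. In that comparison the setting therefore bears on the other T values (3 higher, 1 lower) only.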
